A study of Homo sapiens with 17 samples.

Results

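The 40 genes described here drive or mark the cell division cycle, from the start of DNA replication to the separation of chromosomes. They were chosen by name from the 20218 genes of the deposited expression table, with earlier results of these data known. Each of the 40 was in the table and reached at least 1 FPKM (a fragment level corrected for transcript length and library size) in all 17 libraries, so all 40 passed the filter on low values and were tested. By role, 14 of them act in G1/S control and DNA replication and 26 in mitosis.

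The libraries came from H9, a human embryonic stem cell line, carrying GFP and mCherry reporters; the labels give SHOX2 as the cell line name and do not name the gene behind mCherry. Cells were differentiated and sorted into 3 populations at 2 times. At day 25 there were 3 libraries each of GFP+mCherry+ cells (libraries 1, 4 and 7), GFP-mCherry+ cells (libraries 2, 5 and 8) and GFP-mCherry- cells (libraries 3, 6 and 9). At day 40 there were 2 libraries of GFP+mCherry+ cells (10 and 13), 3 of GFP-mCherry+ cells (11, 14 and 17) and 3 of GFP-mCherry- cells (12, 15 and 18). All groups share the first differentiation step with CHIR99021, BMP4 and Activin A. The protocol then splits into a cardiomyocyte arm with XAV939 and a sinoatrial arm with cucurbitacin, retinoic acid, SU5402, XAV939, Tyrphostin AG 490 and chidamide, both kept in RPMI with B27, and the labels do not tie a sorted population to an arm. A sinoatrial-like cell type is given for all libraries, the GFP-mCherry- ones included. The labels name no separate culture for each library, so a p-value here measures the spread among these libraries alone, perhaps a technical one, and everything rests on 1 parental line.

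Markers differed between the populations at day 25, although the mCherry label could not be checked because its gene is not named. SHOX2, a transcription factor of the sinoatrial node, stood at 91.8 ± 45.1 FPKM (SD, n = 3) in GFP+mCherry+ cells of day 25, at 1.32 ± 0.413 (n = 3) in GFP-mCherry+ cells and at 0.427 ± 0.112 (n = 3) in GFP-mCherry- cells. Cardiac troponin T (TNNT2) stood at 1796 ± 724, 5328 ± 807 and 135 ± 28.8 FPKM in the same groups, so the GFP-mCherry- libraries held little of this cardiomyocyte marker. Atrial myosin heavy chain (MYH6) was listed at 0 in library 14, a GFP-mCherry+ library of day 40, while the other libraries of that group stood at 520 and 628 FPKM; libraries 13 and 14 also had the fewest genes above 0, 16493 and 16598 against at most 17806. Read depth was not used here, and the FPKM sums ran from 566029 to 660085. In bulk samples such as these, fewer cycling cells and less RNA of these genes per cell cannot be told apart.

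A cell commits to division when cyclin-dependent kinases inactivate the retinoblastoma family and free E2F transcription factors, which switch on genes for loading the MCM helicase, making deoxynucleotides and copying DNA. Later in the cycle the MuvB complex, with B-MYB and FOXM1, activates the genes of G2 and mitosis, many through a promoter element called the cell cycle genes homology region (CHR). In quiescent cells the same elements recruit the repressive DREAM complex. Cardiomyocytes divide often in the embryo and largely leave the cycle as they mature.

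The promoters of the 2 sets differ in these letters, and 5 of those whose genes passed the test in a comparison below are printed to show it. RefSeq promoter windows (build GRCh38.p14, 250 bases before to 50 after the start) were found for 31 of the 40 members, and both strands were searched for CHR (TTTGAA), an E2F site (TTTNNCGC) and the CCAAT box (CCAAT). The 250 bases before the start follow 5′ to 3′ along the gene. E2F matches are in capitals in MCM3, CDT1 and TYMS, and a CHR match is in capitals in CCNB2. CCNA2 holds neither of these exact spellings in these bases. Variant spellings, such as the cttgaa in CCNA2, were not searched, so a gene without a match may still hold such an element.
MCM3, chr6:52284743-52284992, minus strand: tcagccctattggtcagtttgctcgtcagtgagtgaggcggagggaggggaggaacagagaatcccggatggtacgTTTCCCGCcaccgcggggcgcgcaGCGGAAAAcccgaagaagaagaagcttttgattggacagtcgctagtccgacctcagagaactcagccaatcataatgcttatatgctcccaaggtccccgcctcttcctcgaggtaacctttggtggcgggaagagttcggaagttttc
CDT1, chr16:88803539-88803788, plus strand: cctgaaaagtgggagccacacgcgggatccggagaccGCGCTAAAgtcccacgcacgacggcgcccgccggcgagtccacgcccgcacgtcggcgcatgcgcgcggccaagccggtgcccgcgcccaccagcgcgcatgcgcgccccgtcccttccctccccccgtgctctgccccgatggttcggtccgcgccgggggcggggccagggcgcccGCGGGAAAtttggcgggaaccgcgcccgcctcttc
TYMS, chr18:657403-657652, plus strand: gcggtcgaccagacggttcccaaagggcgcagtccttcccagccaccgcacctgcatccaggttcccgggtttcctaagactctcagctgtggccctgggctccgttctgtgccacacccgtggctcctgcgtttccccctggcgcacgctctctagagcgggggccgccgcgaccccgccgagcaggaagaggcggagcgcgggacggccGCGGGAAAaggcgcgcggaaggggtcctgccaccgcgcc
CCNB2, chr15:59104896-59105145, plus strand: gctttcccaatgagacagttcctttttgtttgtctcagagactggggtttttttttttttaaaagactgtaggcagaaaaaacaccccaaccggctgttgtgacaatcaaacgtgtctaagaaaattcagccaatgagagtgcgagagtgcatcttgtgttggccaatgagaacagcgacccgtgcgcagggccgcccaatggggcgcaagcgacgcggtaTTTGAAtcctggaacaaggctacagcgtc
CCNA2, chr4:121823884-121824133, minus strand: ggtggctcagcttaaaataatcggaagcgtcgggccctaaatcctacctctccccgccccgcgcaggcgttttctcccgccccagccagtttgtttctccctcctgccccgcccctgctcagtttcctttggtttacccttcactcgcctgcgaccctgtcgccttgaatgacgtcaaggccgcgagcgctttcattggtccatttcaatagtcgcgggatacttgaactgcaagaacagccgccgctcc

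The CHR letters were found in 14 of the 20 mitosis members with a window (70%) and in 0 of the 11 replication members. They were in the windows of 18.2% of the 27305 genes with a RefSeq window. The E2F letters went the other way: 9 of 11 replication members (81.8%) and 3 of 20 mitosis members (15%) held them, those 3 being CDK1, CENPA and NUSAP1, against 8.23% of all genes. The CCAAT box was in 25 of the 31 members (80.6%), spread over both sets, and in 39.7% of all genes. In 13 of the 14 genes with CHR letters a match lay between 70 bases before the start and the window's end, as in CCNB2, where it begins at position -29 from the start; TOP2A was the exception. E2F matches began at positions -213 and -35 in CDT1, -39 in TYMS, and -174 and -150 in MCM3, where a further match crosses the start and is not capitalised. E2F matches overlapped each other in E2F1, MCM2 and MCM6, an E2F and a CCAAT match overlapped in MCM7 and a CHR and a CCAAT match in MKI67. These are matches of the exact letters, without variant spellings, and not measured binding.

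**Figure D1:**
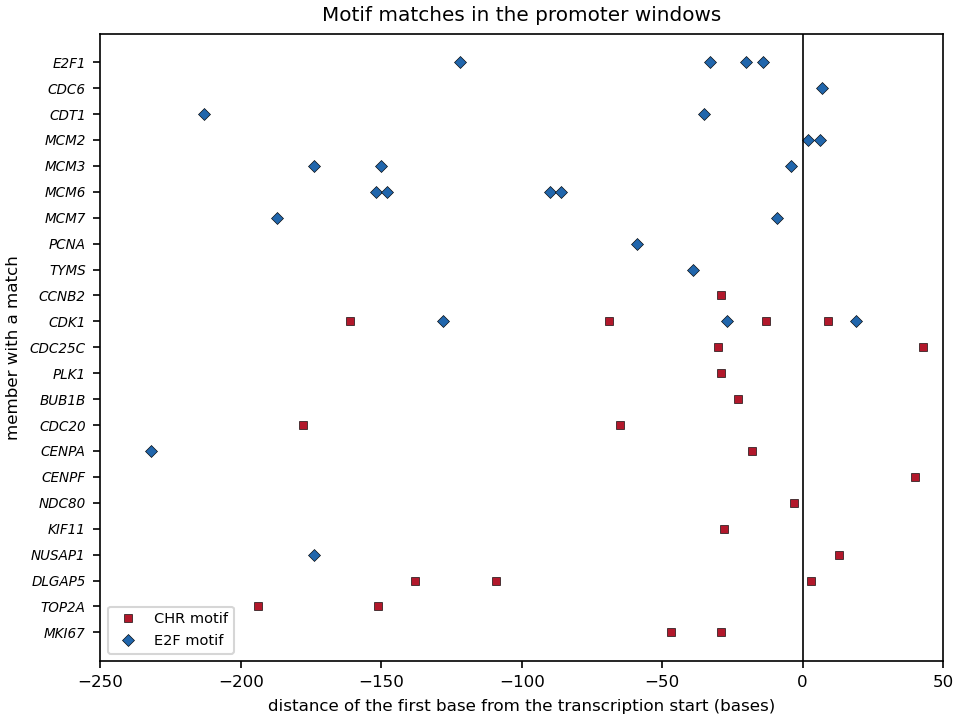
Positions of CHR (squares) and E2F (diamonds) matches in the RefSeq promoter windows (x axis, bases from the gene start to the first base of a match; rows, members with at least 1 match, ordered by role). E2F matches fill the replication rows and also occur in 3 mitosis rows (CDK1, CENPA and NUSAP1). CHR matches lie in mitosis rows alone, where 13 of 14 genes have one from 70 bases before the start on.

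Transcripts of the members were of modest abundance. Averaged over the 17 libraries, the levels ran from 3.24 FPKM for CCNE2, a cyclin of the G1/S switch, to 68.7 for MCM4, a subunit of the replicative helicase. Among replication genes MCM7 (63.0 FPKM) and TYMS (61.7), which makes thymidylate, were next, and the mitosis genes with the highest levels were CCNB1 (42.3), the B-type cyclin of mitotic entry, UBE2C (38.3), the ubiquitin-conjugating enzyme of the anaphase-promoting complex, and CDK1 (37.2), the kinase that CCNB1 activates. MKI67 averaged 7.12 FPKM.

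The GFP+mCherry+ cells held the lowest group mean for most members: 24 members were lowest there at day 25 and 12 at day 40. The GFP-mCherry- cells of day 25 held the highest mean for 28 members and GFP-mCherry+ cells of day 40 for 8. These orders rest partly on single libraries. Library 3, a GFP-mCherry- library of day 25, was the highest of all 17 for 28 members, 25 of them of the 26 mitosis members. Library 17, a GFP-mCherry+ library of day 40, was the highest for 9 members, all of them replication genes. The lowest values were mostly in library 5 (GFP-mCherry+, day 25), for 16 members, and in libraries 7 and 13 (both GFP+mCherry+), for 9 each.

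MKI67, the widely used proliferation marker, was 1 of the 3 members whose highest group mean was in GFP-mCherry- cells of day 40. It stood at 6.77, 4.50 and 3.84 FPKM in GFP+mCherry+ cells, 7.78, 3.45 and 4.41 in GFP-mCherry+ cells and 14.2, 5.79 and 5.80 in GFP-mCherry- cells of day 25. At day 40 it stood at 6.68 and 6.03, at 7.11, 6.05 and 6.21, and at 13.3, 8.52 and 10.6 in the same order. The GFP-mCherry- libraries of day 40 all lay above the other libraries of that day, while at day 25 the groups overlapped, and MKI67 passed the test in no comparison.

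**Figure D2:**
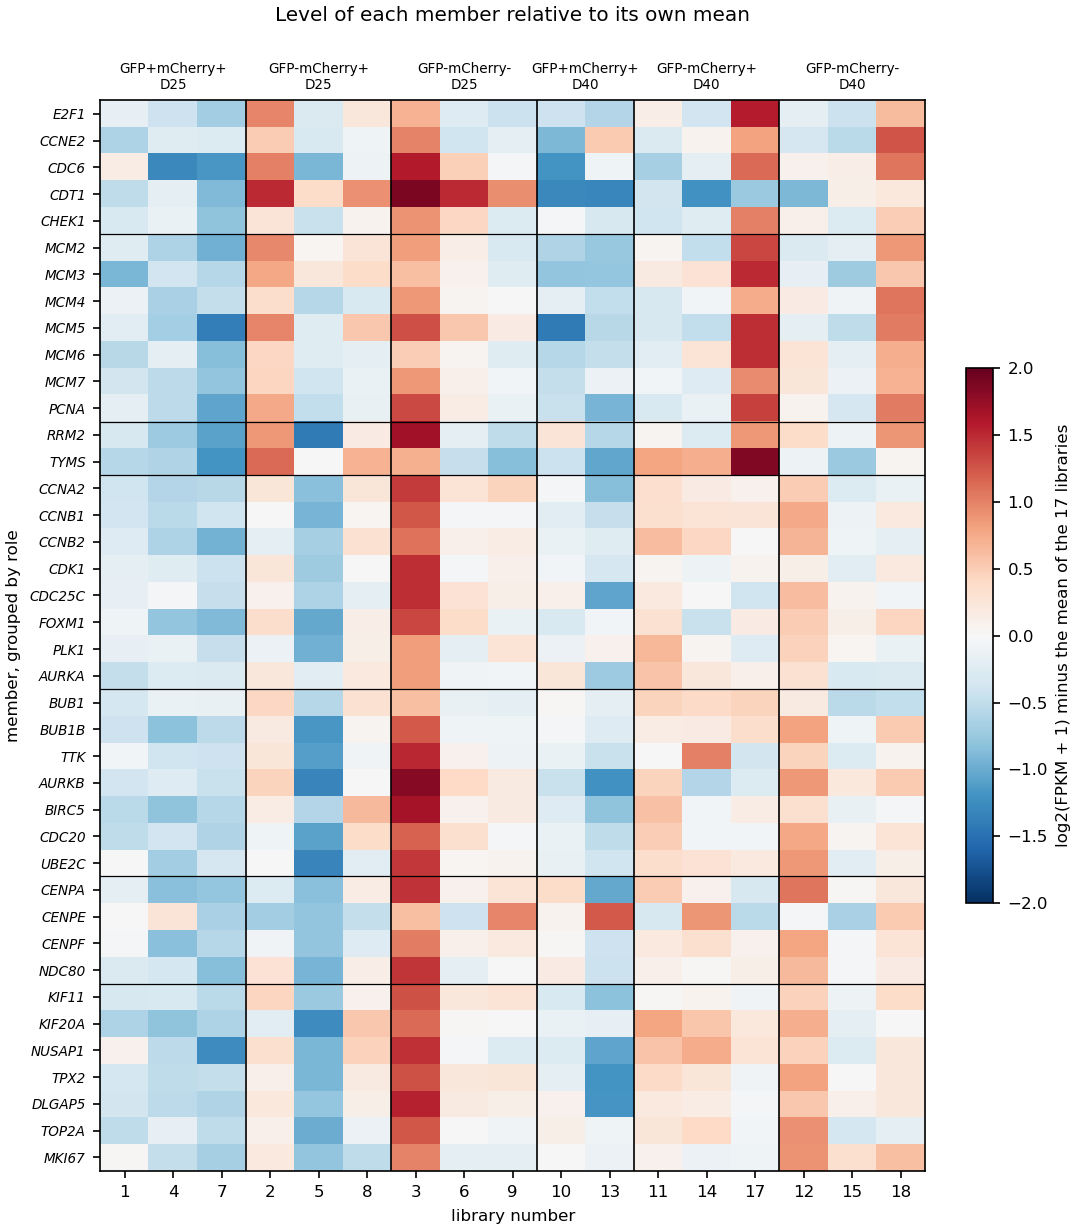
Level of each of the 40 members in each of the 17 libraries, as log2(FPKM + 1) relative to the gene's mean over the libraries (colour), with genes in rows by role and libraries in columns by group. Library 3 is high across the mitosis rows, library 17 across the replication rows, and the GFP+mCherry+ columns are low in most rows.

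Between GFP+mCherry+ and GFP-mCherry+ cells, CDT1, TYMS and MCM3, all replication genes, were called at day 25, a share of the members near that over all genes. At day 25, 3 of the 40 members were lower in GFP+mCherry+ cells by limma on log2(FPKM + 1) at an adjusted p under 0.05 and none was higher, a share of 7.5% beside 8.38% of all genes tested called lower and 12% called higher. The 14 members of the replication set all had a difference below 0 (median -0.68 on the log2 scale), and 11 of them did not pass the test. The mitosis set had 21 of 26 below 0 with a median of -0.26 and none called; the 2 sets were not compared by a test. At an unadjusted p under 0.05 there were 5 members, 12.5% of them, beside 34.4% of all genes, and the median over all genes was 0.06.

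CDT1, which loads the MCM helicase at origins (hg19 chr16:88869621-88875666), stood at 2.68, 3.53 and 1.84 FPKM in GFP+mCherry+ cells of day 25 and at 13.7, 5.74 and 8.78 in GFP-mCherry+ cells. The 2 groups did not overlap, and the log2 difference was -1.45 ± 0.35 (SE, n = 3 and 3, adjusted p = 0.00964, limma). The call held without any single library. TYMS (hg19 chr18:657604-673578) stood at 34.2, 33.6 and 22.0 against 114, 51.5 and 83.7 FPKM, again without overlap, a difference of -1.40 ± 0.40 (adjusted p = 0.0227). MCM3, a subunit of the helicase ring (hg19 chr6:52128807-52149679), stood at 16.8, 24.5 and 21.4 against 56.3, 38.2 and 42.0 FPKM, a difference of -1.08 ± 0.35 (adjusted p = 0.0364). Every GFP+mCherry+ library lay below every GFP-mCherry+ library for all 3 genes. The MCM3 call was lost when any 1 of the 6 libraries was left out (adjusted p from 0.0507 to 0.117), and the TYMS call without library 2 or 7 (0.0903 each) or 8 (0.0689).

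At day 40 the same direction was seen, with TYMS and MCM3 called lower in GFP+mCherry+ cells, 5% of the members beside 9.29% of all genes called lower, and none called higher beside 16.2%. TYMS stood at 37.8 and 24.6 FPKM in GFP+mCherry+ cells and at 90.1, 85.9 and 189 in GFP-mCherry+ cells, a difference of -1.86 ± 0.45 (SE, adjusted p = 0.0071). MCM3 stood at 18.4 and 18.6 against 36.8, 39.8 and 92.5 FPKM, a difference of -1.43 ± 0.39 (adjusted p = 0.0134). Neither gene overlapped between the groups, and library 17 was the highest for both. Of the members, 39 had a difference below 0 (median -0.52, against 0.08 over all genes), CENPE, a kinetochore motor, being the exception at 0.64. At an unadjusted p there were 5 members beside 38% of all genes. Both calls were lost without library 13 (adjusted p = 0.11 for TYMS and 0.0968 for MCM3), which leaves 1 GFP+mCherry+ library assumed to vary like the other groups, and that of MCM3 also without library 10 (0.051) or 17 (0.0543).

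TYMS shares 3255 bases of its hg19 locus with ENOSF1, a member of the enolase superfamily, and the sources used here do not say whether counting used strand, so reads of the 2 genes may not be fully separated. ENOSF1, looked up after its values were seen, averaged 46.8 ± 10.5 FPKM in GFP+mCherry+ cells of day 25, 81.1 ± 4.62 in GFP-mCherry+ cells and 24.3 ± 5.39 in GFP-mCherry- cells (SD, n = 3 each). It was called lower in GFP+mCherry+ than in GFP-mCherry+ cells at day 25 (-0.80 ± 0.21, adjusted p = 0.0137), as TYMS was. At day 40 it stood at 76.9 ± 21.9 (n = 2) in GFP+mCherry+ cells and 74.7 ± 5.47 (n = 3) in GFP-mCherry+ cells, a difference of 0.02 ± 0.23 (adjusted p = 0.97), where TYMS was called lower. In all, 13 of the 40 members share part of their locus with another gene.

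**Figure D3:**
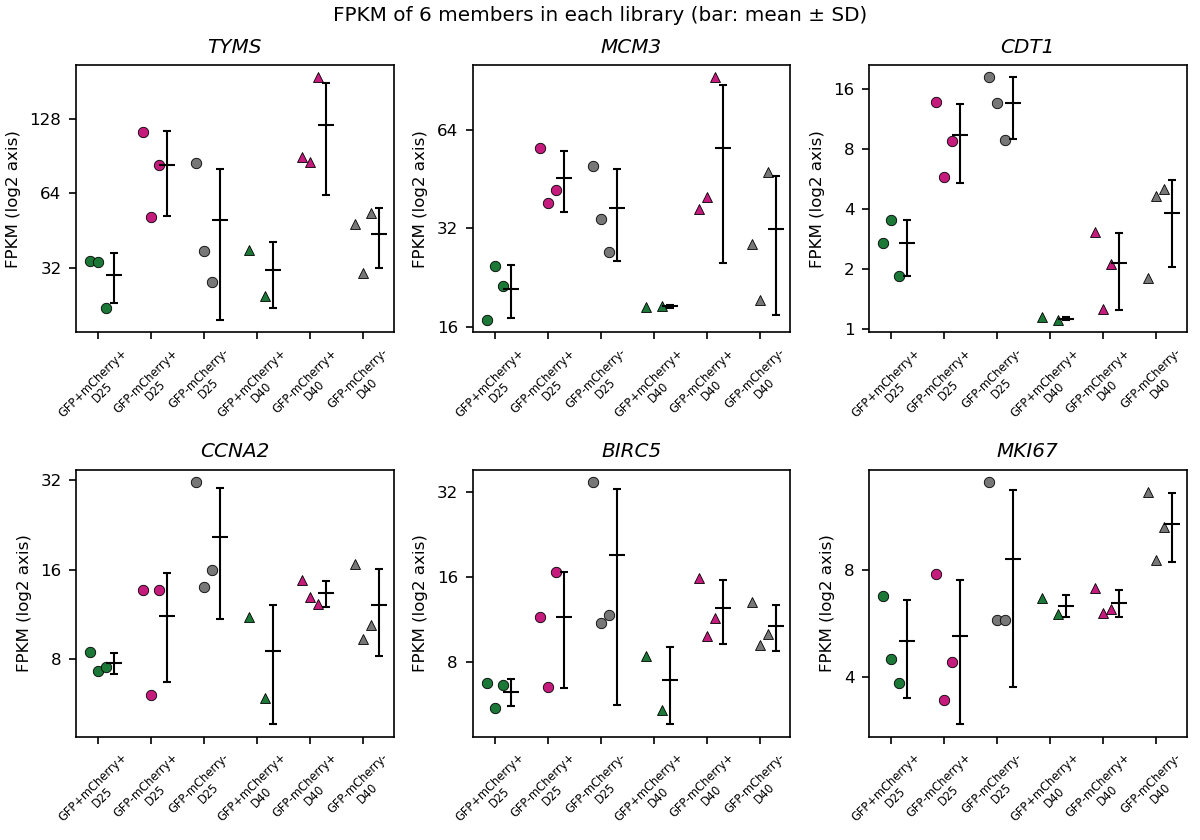
FPKM of TYMS, MCM3, CDT1, CCNA2, BIRC5 and MKI67 in each library by group (y axis, FPKM on a log2 axis; points, libraries, round for day 25 and triangular for day 40; bars, mean ± SD). TYMS and MCM3 are low in all GFP+mCherry+ libraries against GFP-mCherry+ libraries at both days, CDT1 is lower at day 40 than at day 25 in GFP-mCherry+ and GFP-mCherry- cells, and library 3 is the highest point for CCNA2 and BIRC5.

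Markers of other cell types also differed in level between these populations. The summed level of 10 cardiomyocyte markers was 5856 to 14324 FPKM in GFP+mCherry+ libraries and 20673 to 26568 in GFP-mCherry+ libraries of day 25, with 6 of the 10 called lower in GFP+mCherry+ cells. The 9 fibroblast and stroma markers summed to 8591 to 14241 against 2955 to 4060, with 6 called higher in GFP+mCherry+ cells, and the 7 epithelial markers to 1503 to 1665 against 754 to 1043, with 5 called higher. At day 40 the macrophage and blood markers summed to 75.8 to 172 in GFP+mCherry+ and 23.3 to 35.0 in GFP-mCherry+ libraries, with 5 of 6 called higher. None of these markers was at 0 throughout a group, and their part in the result was not tested.

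Between GFP+mCherry+ and GFP-mCherry- cells of day 25, CDT1, CCNA2, BIRC5 and CCNB2 were called lower in GFP+mCherry+ cells, and 36 members did not pass the test. All 40 members had a difference below 0, with a median of -0.89 against -0.03 over all genes. Of the members 4 were called lower, 10% beside 5.27% of all genes, and none higher beside 5.78%. At an unadjusted p under 0.05 there were 25 members (62.5%) beside 25.6% of all genes, 19 of them from the mitosis set. Of the called members, 1 is a replication gene and 3 are mitosis genes.

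CDT1 stood at 18.2, 13.6 and 8.88 FPKM in GFP-mCherry- cells of day 25, all above the GFP+mCherry+ libraries given above, a difference of -1.96 ± 0.35 (SE, n = 3 and 3, adjusted p = 0.00207). It kept this call without any single library. CCNA2, the cyclin of S phase and mitotic entry (hg19 chr4:122737599-122745087), stood at 8.42, 7.27 and 7.50 FPKM in GFP+mCherry+ cells and at 31.7, 14.0 and 16 in GFP-mCherry- cells (-1.22 ± 0.33, adjusted p = 0.0282). BIRC5, or survivin, a subunit of the chromosomal passenger complex (hg19 chr17:76210267-76221717), stood at 6.73, 5.46 and 6.60 against 34.8, 11.0 and 11.7 (-1.28 ± 0.37, adjusted p = 0.0374). Library 3 was the highest for each of these genes. CCNB2, a B-type cyclin (hg19 chr15:59397277-59417244), stood at 14.8, 11.2 and 8.75 against 39.0, 19.1 and 19.9 FPKM (-1.05 ± 0.31, adjusted p = 0.042). None of the 4 genes overlapped between the groups. Without library 3 the calls of CCNA2 (adjusted p = 0.139), BIRC5 (0.172) and CCNB2 (0.197) were lost, each being lost as well without libraries 4 or 7, CCNA2 and BIRC5 without library 1 (0.0503 and 0.0676), and CCNA2 and CCNB2 without library 9 (0.0506 and 0.0621).

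Leaving out library 3 moved the median of the members in this comparison from -0.89 to -0.50, and CDT1 was then the 1 member called (-1.73, adjusted p = 0.0143). With sample quality weights, which gave library 7 a weight of 7.47, 29 members were called lower, beside 20.7% of all genes called lower in that weighted fit. The next members by adjusted p were KIF11 (0.0503), a spindle motor, CENPF (0.0537), a kinetochore protein, and TPX2 (0.0684), a spindle assembly factor. The locus of BIRC5 shares 10279 bases with AC087645.1 and that of CCNA2 578 bases with EXOSC9, so their values carry the same reservation as those of TYMS. The 10 cardiomyocyte markers summed to 635 to 844 FPKM in GFP-mCherry- libraries of day 25 and 8 of them were called higher in GFP+mCherry+ cells. Of the 9 stroma markers none was called (8591 to 14241 against 7188 to 8775), while 1 of 7 epithelial markers was called lower (1503 to 1665 against 2475 to 2843). The part of these cells in the result was not tested.

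At day 40 no member passed the test between GFP+mCherry+ and GFP-mCherry- cells, beside 4.76% of all genes called lower and 7.04% called higher. The smallest adjusted p-values were those of CDT1 (0.0781), AURKB (0.0866), the kinase of the passenger complex, and TPX2 (0.0899). At an unadjusted p there were 4 members beside 28.3% of all genes. The direction was below 0 for 38 members (median -0.56, against 0.02 over all genes), and all 14 replication members were among them. AURKB stood at 12.0 and 6.62 FPKM in GFP+mCherry+ cells and at 31.1, 19.5 and 24.4 in GFP-mCherry- cells, groups that did not overlap.

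Between GFP-mCherry+ and GFP-mCherry- cells of day 25, CENPF was the 1 member called. All 26 mitosis members had a difference below 0 (median -0.70) and 10 of the 14 replication members (median -0.29), against a median of -0.10 over all genes. It was called lower, 2.5% of the members beside 16.4% of all genes, and none higher beside 12.1%; at an unadjusted p there were 12 members, all mitosis genes and 30% of the 40, beside 39.2% of all genes. CENPF (hg19 chr1:214776538-214837931) stood at 10.4, 5.87 and 9.02 FPKM in GFP-mCherry+ cells and 23.2, 11.8 and 12.7 in GFP-mCherry- cells (-0.81 ± 0.29, adjusted p = 0.0479), without overlap. That call was lost without library 3 (adjusted p = 0.218), 5 (0.202), 8 (0.0789) or 9 (0.0593) and under each other scaling. Without library 3 the median fell closer to 0, at -0.23, and TYMS was then called higher in GFP-mCherry+ cells (1.26, adjusted p = 0.0248); with sample quality weights 21 members were called lower, beside 29.8% of all genes.

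At day 40 TYMS was the 1 member that differed between GFP-mCherry+ and GFP-mCherry- cells. It stood at 90.1, 85.9 and 189 FPKM in GFP-mCherry+ cells and at 48.1, 30.4 and 53.2 in GFP-mCherry- cells, without overlap, a difference of 1.39 ± 0.40 (SE, n = 3 and 3, adjusted p = 0.0151). This 1 higher call is 2.5% of the members beside 13.3% of all genes, and none was lower beside 18.5%; at an unadjusted p there were 3 members beside 41.9% of all genes. The median over the members was 0.02, with 18 of 40 below 0, and over all genes -0.09. The TYMS call was lost without library 15 (adjusted p = 0.0757) or 17 (0.0811). ENOSF1 was called higher in GFP-mCherry+ cells too (1.21 ± 0.21, adjusted p = 0.00041). Between GFP-mCherry+ and GFP-mCherry- cells all 10 cardiomyocyte markers were called higher at day 25 and 9 at day 40, and 7 of 7 epithelial and 7 of 9 stroma markers lower at both days; their part was not tested. The comparisons of the 3 populations share their libraries, so they are not independent of each other.

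Between the days, CDT1 was the member that changed. In GFP-mCherry+ cells it stood at 13.7, 5.74 and 8.78 FPKM at day 25 and at 3.04, 1.25 and 2.11 at day 40, without overlap, and fell by 1.70 ± 0.35 on the log2 scale (SE, adjusted p = 0.0139). In GFP-mCherry- cells it stood at 18.2, 13.6 and 8.88 and then at 1.79, 4.64 and 5.04, again without overlap, and fell by 1.62 ± 0.35 (adjusted p = 0.0188). In GFP+mCherry+ cells, low from the start, it stood at 2.68, 3.53 and 1.84 and then at 1.14 and 1.11 (-0.77, adjusted p = 0.291). The call in GFP-mCherry+ cells was lost without library 2 (adjusted p = 0.0814), 14 (0.0819) or 17 (0.0541), and that in GFP-mCherry- cells without library 3 (0.0786), 6 (0.0761) or 12 (0.0785).

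No other member was called between the days. In GFP-mCherry+ cells CDT1 made 2.5% of the members beside 3.91% of all genes called lower, with 0.633% called higher, and in GFP-mCherry- cells 2.5% beside 2.32% called lower, with 1.56% called higher. In GFP+mCherry+ cells none was called, beside 1.88% lower and 2.18% higher. At an unadjusted p there were 0 members in GFP+mCherry+ cells, 2 in GFP-mCherry+ cells and 1 in GFP-mCherry- cells, beside 20%, 18.2% and 17.7% of all genes. In GFP-mCherry+ cells 37 members had a higher mean log2 level at day 40 (median 0.31), in GFP-mCherry- cells 34 a lower one (median -0.24), and in GFP+mCherry+ cells the median was 0.10; over all genes these medians were -0.03, -0.09 and -0.04. Without library 3 the median in GFP-mCherry- cells was 0.19, on the other side of 0. The 6 macrophage and blood markers moved with the day: they summed to 15.2 to 19.6 FPKM at day 25 and 75.8 to 172 at day 40 in GFP+mCherry+ cells (6 of 6 called higher), 1.40 to 11.2 and 23.3 to 35.0 in GFP-mCherry+ cells (4 of 6), and 9.51 to 10.2 and 14.1 to 26.8 in GFP-mCherry- cells (0 of 6). No cardiomyocyte, stroma or epithelial marker was called between the days. Of the 6 endoderm and liver markers tested, 1 was called lower in GFP+mCherry+ cells and 1 in GFP-mCherry+ cells, beside 1.88% and 3.91% of all genes. The part of all these markers in the change of CDT1 was not tested.

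Whether the change between days differed between populations was tested directly. No member passed that test between GFP+mCherry+ and GFP-mCherry+ cells, between GFP-mCherry+ and GFP-mCherry- cells or between GFP+mCherry+ and GFP-mCherry- cells, beside 0.0135%, 0.00674% and 1.24% of all genes. None had an unadjusted p under 0.05 in any of the 3, beside 6.59%, 6.7% and 8.24% of all genes. For CDT1 the change in GFP+mCherry+ cells minus that in GFP-mCherry+ cells was 0.93 ± 0.53 (SE, adjusted p = 0.815). The calls of CDT1 in GFP-mCherry+ and GFP-mCherry- cells and not in GFP+mCherry+ cells are thus not shown to differ.

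**Figure D4:**
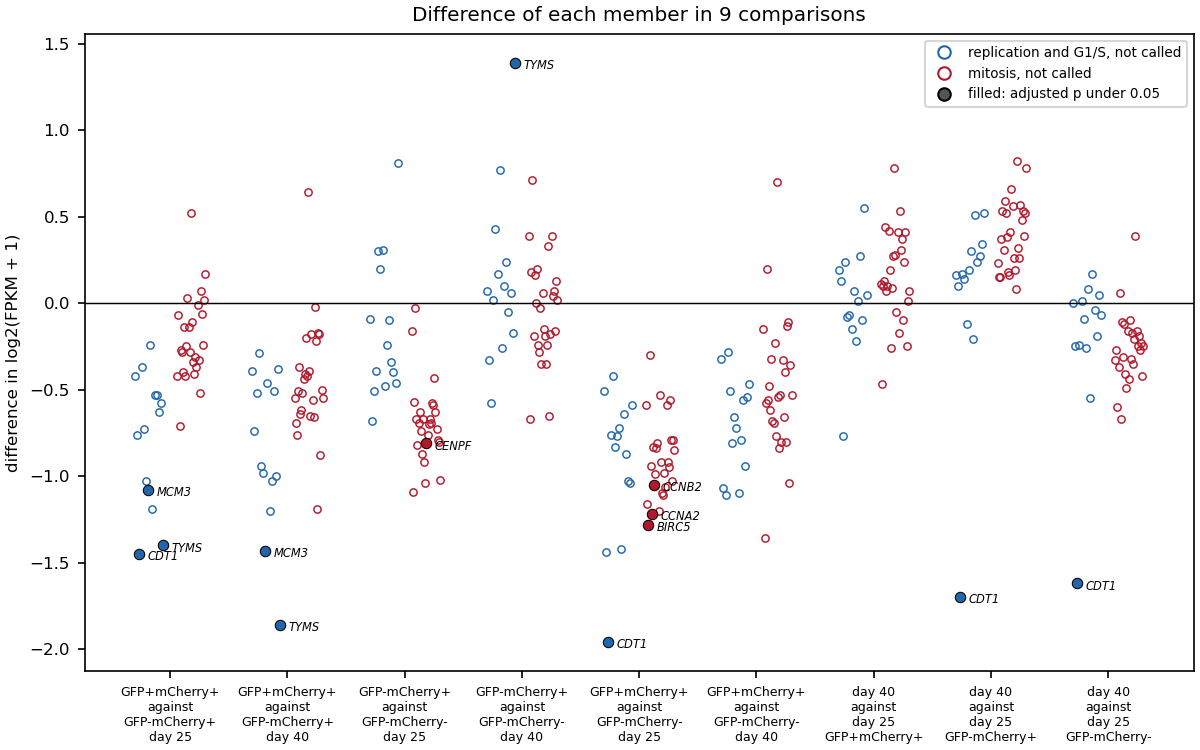
Log2 differences of the 40 members in the population and day comparisons (y axis, difference in log2(FPKM + 1); x axis, the 9 comparisons; blue points, replication members; red points, mitosis members), with members called at an adjusted p under 0.05 filled and named. All 40 points lie below 0 for GFP+mCherry+ against GFP-mCherry- at day 25, while the points for GFP-mCherry+ against GFP-mCherry- at day 40 scatter around 0.

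From library to library, members varied more closely with others of their own set than with those of the other set. As deviations from group means, replication members correlated with each other with a median r of 0.82 over 91 pairs, and mitosis members likewise with 0.82 over 325 pairs, but pairs of 1 from each set had a median of 0.36 over 364 pairs. Over all gene pairs the median was 0.03, with quartiles of -0.24 and 0.29. These are descriptions over 17 libraries that share depth and preparation within a library. Each member was also set against the mean of the other members, most of them mitosis genes, using levels with the group differences left in. CCNB1 and NDC80, a kinetochore protein, followed that mean most closely (r = 0.94), while CENPE (0.13), CDT1 (0.43) and CCNE2 (0.53) followed least.

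Some libraries stood apart in 1 set and others in both. Library 17 had a mean log2 level of 1.09 above the average in replication members and about 0 in mitosis members: PCNA, the sliding clamp, was at 99.4 FPKM there against 30.6 and 34.6 in the other 2 libraries of its group, while PLK1, a mitotic kinase, was at 14.9 against 29.3 and 18.8. Library 18 had 0.75 and 0.14, and library 12 of the same group -0.06 and 0.60. Library 3 was high in both, at 1.05 and 1.25, with CDK1 at 99.6 FPKM against 34.6 and 37.7 and PCNA at 96.0 against 42.2 and 34.8 in the rest of its group. Library 5 was low in both, at -0.34 and -0.88. In GFP+mCherry+ cells all 5 libraries lay below the average in both sets.

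**Figure D5:**
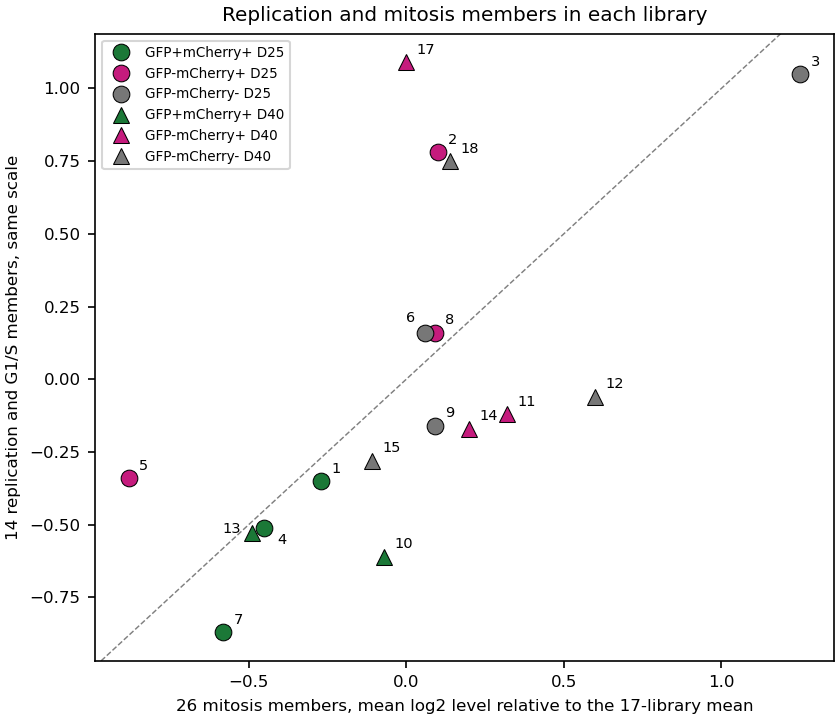
Mean log2(FPKM + 1) of the 14 replication members (y axis) against that of the 26 mitosis members (x axis), each relative to the average over the 17 libraries, with 1 point per library, coloured by population, with circles for day 25, triangles for day 40 and a dashed line of equal values. Library 3 is high on both axes (1.25 and 1.05), library 17 on the y axis alone (1.09), and all GFP+mCherry+ libraries lie below 0 on both.

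The 10 genes outside the members that followed their mean most closely over the 17 libraries, among 10685 candidates with a mean of at least 5 FPKM, were KIFC1 (r = 0.97), PBK (0.95), SPC25, ASF1B and NCAPH (0.93 each), CDCA8 (0.91), CDCA5, RAD51AP1 and FBXO5 (0.90 each) and VRK1 (0.88). KIFC1 is a spindle motor, SPC25 a kinetochore subunit, ASF1B a histone chaperone, NCAPH a condensin subunit and FBXO5 an inhibitor of the anaphase-promoting complex. Of the 10, 8 belong to the other cell cycle lists described next.

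Other genes of replication and mitosis mostly had differences on the members' side of 0. Of 52 further G1/S and replication genes tested, 49 had a difference below 0 between GFP+mCherry+ and GFP-mCherry- cells at day 25 (median -0.59) with 3 called lower, beside 5.27% of all genes. Those 3 calls were lost without library 3. Between GFP+mCherry+ and GFP-mCherry+ cells 40 were below 0 (median -0.28) with 0 called lower and 2 higher, beside 8.38% and 12% of all genes. The 2 called higher in GFP+mCherry+ cells were SLBP, which binds histone mRNA (0.76, adjusted p = 0.00949), and CCNE1, a G1/S cyclin (0.87, adjusted p = 0.024); CCNE1 lost its call without library 1, 5, 7 or 8. SLBP was also lower in GFP-mCherry+ than in GFP-mCherry- cells (-0.99, adjusted p = 0.000784). Between GFP+mCherry+ and GFP-mCherry- cells of day 40, TK1, which salvages thymidine, was lower (3.14 ± 1.65 against 15.5 ± 6.42 FPKM, -1.98, adjusted p = 0.0309), and E2F8, a repressive E2F, higher (1.28, adjusted p = 0.0278); both calls were lost without library 13 or 15, and that of TK1 also without 18.

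Of 68 further G2 and mitosis genes, 20 were called lower in GFP+mCherry+ than in GFP-mCherry- cells of day 25 and none higher, with 67 below 0 (median -0.93), beside 5.27% of all genes called lower. All of these calls except those of KIF15 and DEPDC1B were lost without library 3, so the count rests largely on that library. Between GFP-mCherry+ and GFP-mCherry- cells 11 of the 68 were called lower (median -0.64), a share near the 16.4% of all genes. KIF15, a spindle motor, was lower in both, at 1.68 ± 0.404 FPKM in GFP+mCherry+, 2.05 ± 0.671 in GFP-mCherry+ and 5.66 ± 2.53 in GFP-mCherry- cells (-1.26, adjusted p = 0.0035, and -1.09, adjusted p = 0.00298). DEPDC1B was lower in both as well (-1.39, adjusted p = 0.00518, and -1.36, adjusted p = 0.00184). LMNB1, the nuclear lamina protein, was lower in GFP-mCherry+ than in GFP-mCherry- cells of day 25 (-1.25, adjusted p = 0.00465). These calls of KIF15, DEPDC1B and LMNB1 held without any single library, library 3 included. Between GFP+mCherry+ and GFP-mCherry+ cells 1 was called higher and 2 lower at day 25, beside 12% and 8.38% of all genes, and 1 higher and 6 lower at day 40, beside 16.2% and 9.29%. CDC25B, a phosphatase that activates CDK1, was higher in GFP+mCherry+ cells at both days (0.98, adjusted p = 0.0026 at day 25, and 0.74, adjusted p = 0.0174 at day 40, the latter lost without library 13 or 17).

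Of the 8 inhibitors of cyclin-dependent kinases tested, 3 were called higher in GFP+mCherry+ than in GFP-mCherry+ cells at both days and none lower, beside 12% (day 25) and 16.2% (day 40) of all genes called higher. CDKN1C (p57) stood at 203 ± 44.4 against 57.5 ± 20.2 FPKM at day 25 (SD, n = 3 each; 1.84, adjusted p = 0.00959) and at 185 ± 9.58 against 30.6 ± 21.2 at day 40 (2.75, adjusted p = 0.00134). CDKN2B (p15) stood at 36.3 ± 4.67 against 10.8 ± 2.40 at day 25 (1.68, adjusted p = 0.00183) and at 34.9 ± 14.6 against 9.65 ± 4.26 at day 40 (1.78, adjusted p = 0.00166, lost without library 13). CDKN1A (p21) stood at 18.6 ± 3.68 against 9.71 ± 0.310 (0.85, adjusted p = 0.00727) and at 23.8 ± 4.08 against 10.3 ± 1.66 (1.13, adjusted p = 0.00203). CDKN1A was also higher in GFP+mCherry+ than in GFP-mCherry- cells of day 25 (1.07, adjusted p = 0.00234), the 1 inhibitor called there, beside 5.78% of all genes called higher. At day 40 none was called between these populations (smallest adjusted p = 0.108). GFP-mCherry+ cells were below GFP-mCherry- cells in CDKN2B at day 25 (-1.23, adjusted p = 0.00558) and day 40 (-2.16, adjusted p = 7.97e-05). CDKN2A was lower in GFP-mCherry+ than in GFP-mCherry- cells too, at day 25 (-0.98, adjusted p = 0.0419) and day 40 (-1.5, adjusted p = 0.00353). Its day 40 call was lost in 0 of 14 alternatives and its day 25 call in 8 of 14. At day 40 GFP-mCherry+ cells were also below GFP-mCherry- cells in CDKN1C (-1.5, adjusted p = 0.0171, lost without library 11, 15 or 17) and CDKN1A (-0.57, adjusted p = 0.0355, lost without library 12, 15 or 17). Of the 8, 2 were called lower there at day 25 and 4 at day 40, beside 16.4% and 18.5% of all genes. Apart from CDKN2B at day 40, the calls between GFP+mCherry+ and GFP-mCherry+ cells held without any single library.

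Among 10 G1 cyclins, kinases and MYC genes, 3 were called higher and 1 lower in GFP+mCherry+ than in GFP-mCherry+ cells of day 25, beside 12% and 8.38% of all genes. CDK7, the CDK-activating kinase, stood at 57.1 ± 1.61 against 30.0 ± 2.83 FPKM (0.91, adjusted p = 0.00214) and MYCN at 7.09 ± 0.651 against 15.0 ± 2.30 (-0.98, adjusted p = 0.00319). MYCN was lower in GFP+mCherry+ than in GFP-mCherry- cells at both days (-1.78, adjusted p = 4.04e-05, and -1.28, adjusted p = 0.00157). CCND2, a D-type cyclin, was higher in GFP+mCherry+ than in GFP-mCherry+ cells (1.09, adjusted p = 0.0183, lost without library 1, 2 or 5), as it was at day 40 (1.35, adjusted p = 0.00816, lost without library 13). MYC was higher there too, at day 25 (1.19, adjusted p = 0.0191, lost without library 1, 2 or 5) and day 40 (1.46, adjusted p = 0.00885, lost without library 13). In all, 3 genes of this list were called higher and 0 lower at day 40, beside 16.2% and 9.29% of all genes. GFP-mCherry+ cells were below GFP-mCherry- cells at both days in CDK7 (-0.96, adjusted p = 0.000513, and -1.02, adjusted p = 0.000294) and in CDK4, the kinase partner of D-type cyclins (-0.72, adjusted p = 0.00485, and -0.83, adjusted p = 0.00162). The same held for MYC (-1.32, adjusted p = 0.00645, and -1.82, adjusted p = 0.000601) and MYCN (-0.8, adjusted p = 0.00527, and -0.86, adjusted p = 0.00315). Of the 10, 4 were called lower there at day 25 and 5 at day 40, beside 16.4% and 18.5% of all genes. None was called higher, beside 12.1% and 13.3%.

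Of 15 pocket proteins, repressive E2F and DREAM or MuvB genes, 1 was called lower in GFP+mCherry+ than in GFP-mCherry+ cells of day 25 and 2 at day 40. These counts stand beside 8.38% and 9.29% of all genes called lower. None was called higher, beside 12% and 16.2%. LIN9, a core MuvB subunit, was called in 4 of the 6 comparisons between populations. It was lower in GFP+mCherry+ than in GFP-mCherry+ cells, at 4.89 ± 0.953 against 12.9 ± 6.44 FPKM at day 25 (-1.16, adjusted p = 0.0114, lost without library 8) and 3.80 ± 1.50 against 13.2 ± 1.89 at day 40 (-1.59, adjusted p = 0.00264, lost without library 13). RBBP4, a histone-binding subunit, was lower at day 40 (-0.84, adjusted p = 0.00484, lost without library 13). Against GFP-mCherry- cells, LIN9 was lower in GFP+mCherry+ cells of day 25 (-0.96, adjusted p = 0.0439). That call was lost without library 1, 3, 4, 6, 7 or 9. At day 40 LIN9 was higher in GFP-mCherry+ than in GFP-mCherry- cells (1.17, adjusted p = 0.00571), and RB1, the retinoblastoma protein, was too (0.71, adjusted p = 0.0303, lost without library 14, 15, 17 or 18). These were the 2 of the 15 called higher there, beside 13.3% of all genes. The remaining members of this list passed the test in neither comparison of GFP+mCherry+ with GFP-mCherry+ cells.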

How the data were processed

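RNA-seq levels were read from a gene table deposited by the authors as FPKM; the unit is not in the header and was inferred from the values and from Cufflinks 2.1.1, named with bcl2fastq 2.19, cutadapt, STAR 2.5.2b and hg19 per the submitters' processing notes. A TruSeq RNA kit was used for the libraries, per the labels' protocols. Rows of 1 gene name were summed, giving 20218 genes from 20368 rows; hg19 starts are 1-based. Read depth is unknown, so no counting intervals were computed.

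Groups were taken from the labels. Values were fitted as log2(FPKM + 1) with limma 3.58.1 (R 4.3.3; 1 mean for each of 6 groups, 11 residual degrees of freedom, trended eBayes) on the 14845 genes that reached 1 FPKM in 2 or more libraries. The test is two-sided, with Benjamini-Hochberg adjustment in each comparison and a threshold of 0.05. It was tested on simulated data with independent noise for each gene and library. That simulation does not cover shifts shared by many genes of a library. A fold change on this scale understates that of low genes. The members, gene lists and marker lists were chosen with earlier results of these data known. Named were the members called, up to 4 genes of each other list from those with small adjusted p, and the 10 genes most like the members. In some comparisons called genes of the other lists were left unnamed, among them the gene with the smallest adjusted p. Alternatives were a pseudocount of 0.1, no filter, median-of-ratios and quantile scaling, the compared groups alone, sample quality weights, zeros set to missing, omission of libraries 13 and 14, and omission of each library.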

Additional observations from a re-analysis of the deposited data

How the results depend on the processing

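No called member changed sign under the alternatives run. Members called lower in GFP+mCherry+ against GFP-mCherry+ cells of day 25 numbered 7 with sample quality weights and 1 to 2 with single libraries left out, against 3; at day 40 they numbered 1 with only the compared groups fitted, 0 without libraries 13 and 14 and 0 to 3 with single libraries left out, against 2. For GFP-mCherry+ against GFP-mCherry- cells of day 25, lower calls numbered 0 with no filter, 0 with median-of-ratios scaling, 0 with quantile normalization, 21 with weights and 0 to 4 with libraries left out, against 1, and higher calls 1 with weights and 0 to 1 with libraries left out, against 0; at day 40 higher calls numbered 2 with median-of-ratios scaling, with quantile normalization and with weights and 0 to 2 with libraries left out, against 1. For GFP+mCherry+ against GFP-mCherry- cells, lower calls of day 25 numbered 2 with no filter, 29 with weights and 1 to 4 with libraries left out, against 4, and of day 40 0 to 1 with libraries left out. The lower call between days was lost (0) in GFP-mCherry+ cells with only the compared groups and without libraries 13 and 14, and in GFP-mCherry- cells with only the compared groups, and numbered 0 to 1 with libraries left out in each. Under the weights 22% of all genes were called lower in GFP+mCherry+ against GFP-mCherry+ cells of day 25, 29.8% in GFP-mCherry+ and 20.7% in GFP+mCherry+ against GFP-mCherry- cells. The weights ran from 0.373 (library 1) to 7.47 (library 7). The cause of these shifts was not tested.

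A move of the members' median was judged by 1 cutoff for all comparisons, the SD of library means of the 40 members pooled over the 6 groups. This is not the spread of the groups compared. Without library 3 the median moved by more than that, to -0.23 for GFP-mCherry+ against GFP-mCherry- and -0.50 for GFP+mCherry+ against GFP-mCherry- cells of day 25. It also moved to 0.19 between the days in GFP-mCherry- cells and to -0.07 in the difference of day changes of GFP+mCherry+ and GFP-mCherry- cells. With weights the median moved to 0.70 between the days in GFP-mCherry+ cells. Quantile normalization shifted the median of all genes by -0.13 in GFP+mCherry+ against GFP-mCherry+ cells of day 40, where it called 1830 genes higher and 1835 lower, against 2404 and 1379. Between the days it called 115 higher and 324 lower in GFP-mCherry+ cells, against 94 and 581, and median-of-ratios scaling 262 and 229 in GFP-mCherry- cells, against 231 and 344. No paired analysis was possible because the labels give each library a number of its own and name no culture, batch or replicate shared between groups. Without read counts, depth limits on low members such as CCNE2 could not be given.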
